A study of Mus musculus with 4 samples.

Results

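Runs are places where CTCF peaks of the mouse hippocampus lay side by side. Neighbouring autosomal peaks were joined whenever fewer than 1000 bp separated the end of one from the start of the next, and joined regions with at least 2 peaks were kept. This gave 825 runs out of 14057 joined autosomal regions (5.87%), and they held 1742 of the 14974 autosomal peaks (11.6%). The other 13232 regions were single peaks.

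CTCF is a DNA-binding protein with an array of zinc fingers. It recognises a long, asymmetric motif, blocks the passage of cohesin along chromatin, and so helps to place the anchors of chromatin loops and the borders of domains. The direction in which the motif points matters for this role, and neighbouring CTCF sites are a known feature of many domain borders. In the hippocampus, a brain region needed for memory, CTCF is present in neurons and glia alike.

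The data were 1 list of peaks from chromatin immunoprecipitation followed by sequencing (ChIP-seq) of hippocampus from C57/Bl mice. The labels name 2 libraries made with a Millipore antibody against CTCF and 2 libraries of input, meaning chromatin that was not precipitated. They give no treatment, genotype, age or sex, and the tissue was not sorted, so all its cell types contributed. Both ChIP libraries were compared with both inputs in a single list. The values below therefore carry no replicate error, read depth is unknown, and a single library cannot be looked at alone.

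Each peak has a position on the mm9 build and a whole-number score given by the authors. Strong and weak mean high and low by that score alone, and its scale is not stated. Over all autosomal peaks the lower quartile of the score was 62, the median 93 and the upper quartile 163. The highest 5% had 568 or more. The runs were selected on the positions of the peaks, and widths and scores come from the same comparison of ChIP with input. All are therefore described without a test.

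Most runs were pairs. There were 747 runs of 2 peaks (90.5%), 65 of 3 peaks, 12 of 4 peaks and 1 of 5 peaks. Runs measured from 786 to 5607 bp, with a median of 1659 bp and quartiles of 1337 and 2073 bp. The median length was 1594 bp for pairs and 2883 bp for runs of 3. Single peaks had a median width of 469 bp, and the widest reached 3420 bp. Only 30 runs were longer than that, and 236 (28.6%) were longer than 2 kb. A run spans 2 or more peaks and their gaps, so its greater length is largely built into the rule. Peaks covered a median of 72.8% of the run that held them, from 40.9% to 97.3%. Most of a typical run was therefore peak, not gap. The rule keeps every gap below 1000 bp, so a high covered share is partly built into the choice.

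The gaps inside runs were spread over the whole allowed range. Their median was 435 bp, with quartiles of 208 and 701 bp. The smallest gap anywhere on the autosomes was 61 bp, so the list holds no peaks that touch or overlap. It occurred in 2 runs, a run of 3 on chromosome 4 at 139426431 to 139428772 with scores of 26, 113 and 51, and a pair on chromosome 14 at 31973614 to 31975077 with a strongest score of 111 and a weakest of 43. The largest gap inside a run, 999 bp, belonged to a run of 3 on chromosome 8 at 97619034 to 97623504 with scores of 121, 90 and 504. Of the 917 gaps, 380 (41.4%) were shorter than 344 bp, which is the smallest width of any peak in the list. Such a gap could not have held another peak of even the smallest width.

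Short gaps were the most frequent. From 100 to 199 bp there were 132 pairs of adjacent peaks, the fullest class of 100 bp. The class under 100 bp held 89 pairs, but no gap was below 61 bp, so only part of that class was filled. The classes fell to 60 pairs from 900 to 999 bp and then ranged from 36 to 65 pairs per class up to 3 kb. No break appeared at the joining distance, as the plot of gaps shows.

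**Figure D1:**
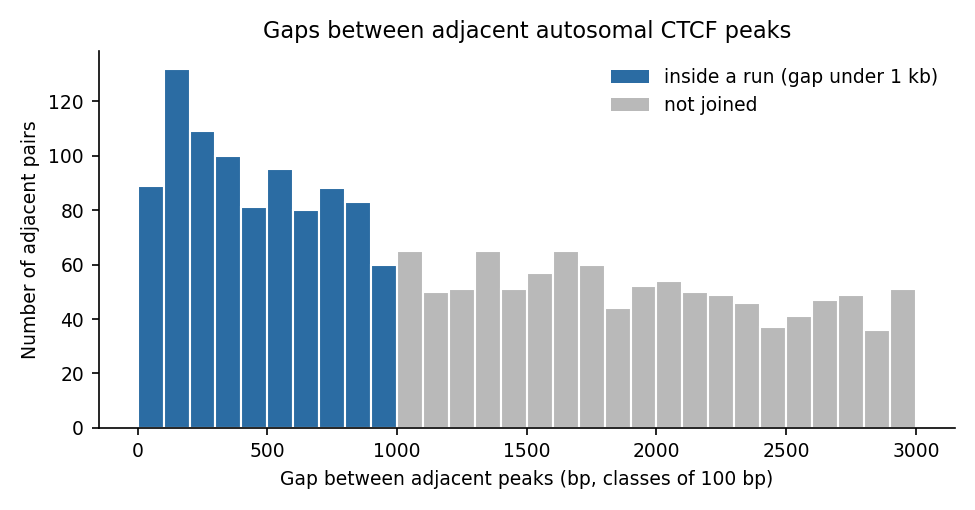
Number of adjacent pairs of autosomal peaks (vertical axis) by the gap between them in classes of 100 bp (horizontal axis). Blue bars are gaps inside runs and grey bars are pairs that were not joined. The highest bar, 132 pairs, lies from 100 to 199 bp, and the counts pass from 60 to 65 across the joining distance without a step. No gap is below 61 bp, so the first bar covers only part of its class.

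Pairs just inside and just outside the rule had similar scores. The 32 pairs with gaps of 950 to 999 bp had a median stronger score of 141 and a median weaker score of 62. The 37 pairs with gaps of 1000 to 1049 bp had medians of 121 and 55. The median ratio of stronger to weaker was 2.27 inside and 2.26 outside.

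A typical run joined a moderate peak to a weak one. The strongest peak of a run had a median score of 142, with quartiles of 90 and 233 and a range of 26 to 2651. The weakest had a median of 62, with quartiles of 43 and 90 and a range of 15 to 352. The ratio of strongest to weakest had a median of 2.10, with quartiles of 1.40 and 3.90. It was at least 2 in 438 runs (53.1%), at least 5 in 136 (16.5%) and at least 10 in 49 (5.94%). At the other end, it was under 1.5 in 240 runs (29.1%). Since the scale of the score is not stated, these are ratios of scores and not of binding.

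**Figure D2:**
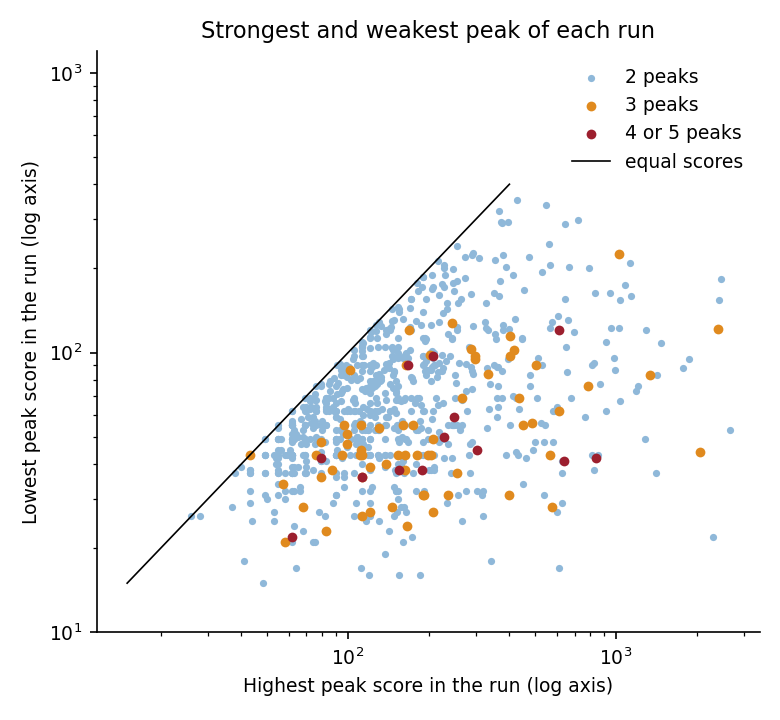
Lowest peak score (vertical, log axis) against highest peak score (horizontal, log axis) of each of the 825 runs, with colours for the number of peaks and a line for equal scores. The highest scores reach 2651, whereas no lowest score exceeds 352, so the strongest runs lie far below the line.

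This unevenness was close to that of any neighbouring peaks. Over the 917 adjacent pairs inside runs, the median ratio of stronger to weaker was 2.02. It was 1.84 for the 560 adjacent pairs that were 1 to 2 kb apart, 1.85 at 2 to 5 kb, 1.97 at 5 to 10 kb and 1.95 at 10 to 100 kb. A ratio of 5 or more was found in 14.4% of the pairs inside runs, against 14.2% of all 14955 adjacent autosomal pairs. Pairs with a ratio of 5 or more were thus a minority in runs, at about the share found among all neighbours. Inside pairs, the ratio showed almost no rank relation to the gap (Spearman's rho = -0.017 over the 747 pairs), and the score of the first peak almost none to that of the second (rho = 0.018). The points share 1 list, and both coefficients are descriptions.

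The share of close pairs with a strong peak lay within the range found among other neighbours. The strongest peak scored 163 or more in 341 runs (41.3%), against 25.4% of single peaks and 25.2% of all autosomal peaks. A run has 2 or more peaks that can reach this level, so adjacent pairs are the closer comparison. The stronger of 2 adjacent peaks scored 163 or more in 39.8% of the pairs inside runs and in 43.1% of all adjacent autosomal pairs. It was 36.6% at 1 to 2 kb, 37.3% at 2 to 5 kb, 43.3% at 5 to 10 kb and 44.8% at 10 to 100 kb. The value inside runs thus lay above the nearest gap classes and below the farther ones. Every peak was below the median of 93 in 215 runs (26.1%). Counted by pairs, both peaks were below it in 27.6% of those inside runs, near the 25.6% of all adjacent autosomal pairs, and in 30.4% at 1 to 2 kb.

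Pairs of 2 strong peaks made up a small share of the runs, near that among all neighbours. Both peaks scored 163 or more in 58 pairs inside runs (6.32%), against 7.17% of all adjacent autosomal pairs and 4.82% of those 1 to 2 kb apart. The share was lower at the shortest gaps, with 9 of 268 pairs (3.36%) under 250 bp and 49 of 649 (7.55%) from 250 to 999 bp. No pair inside a run had both peaks in the highest 5%, whereas 10 of the 3249 pairs from 1 to 10 kb did and 24 of the 6975 pairs from 10 to 100 kb. The highest score of the weaker peak was 409 inside runs, 1027 at 1 to 2 kb, 707 at 2 to 5 kb and 1300 at 5 to 10 kb. These counts are small and the bins share the same chromosomes.

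The weakest peaks had the highest share lying in runs. A run held 488 of the 3176 peaks with scores under 62 (15.4%), 9.64% of those from 62 to 92 and 11.7% of those from 93 to 162. The share was 11.1% for scores of 163 to 567, and 66 of the 754 peaks in the highest 5% lay in runs (8.75%). Of the 20 highest-scoring autosomal peaks, 1 was in a run, against 11.6% of all autosomal peaks. With only 20 peaks, that count is too small to set apart from this share. The shares did not fall steadily, since peaks just below the median had a lower share than those just above it.

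**Figure D3:**
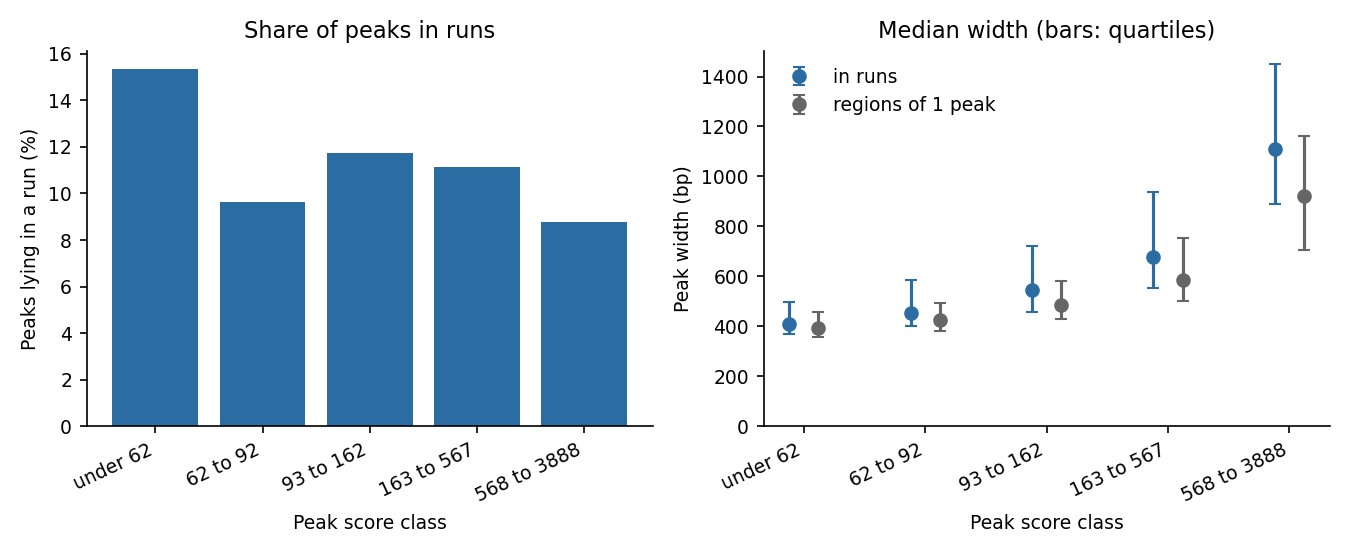
Left, share of autosomal peaks that lay in a run, in percent, by class of peak score. Right, median peak width in bp with bars for the quartiles, for peaks in runs (blue) and single peaks (grey). The class under 62 has the highest share, 15.4%, and in each class peaks in runs had the larger median width.

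Members were wider than single peaks of similar score. Among peaks of 568 or more, the median width was 1108.5 bp in runs and 921 bp for single peaks. From 163 to 567 it was 679 and 587 bp, and from 93 to 162 it was 545 and 484 bp. In the 2 lowest classes the medians were 454.5 and 425 bp, and 408 and 392 bp. The quartiles of the groups overlapped in every class. Inside pairs with unequal scores, the stronger peak was also the wider one in 528 of 736 (71.7%), with median widths of 580 bp for the stronger and 450 bp for the weaker. Among single peaks, too, the median width rose with each score class. The share with the wider stronger peak was not computed for other neighbours. Whether the peaks of a run are separate sites of binding or parts of 1 enriched stretch was not tested.

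The stronger peak was found about equally often on either side. It lay at the lower coordinate in 361 of the 747 pairs (48.3%) and at the higher coordinate in 375 (50.2%), while 11 pairs had equal scores. Among the 372 pairs with a ratio of at least 2, the counts were 184 and 188. Among the 113 pairs with a ratio of at least 5, they were 54 and 59. The side is given by chromosome coordinates, and the direction of the motif or of nearby genes was not analysed here.

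In the 65 runs of 3, the strongest peak could take any place. It was in the middle in 21, at the lower-coordinate end in 16 and at the higher-coordinate end in 27, with 1 tie for the strongest. The weakest was in the middle in 25, at the lower end in 17 and at the upper end in 21. Scores rose steadily from the lower to the higher coordinate in 9 runs and fell steadily in 8. Most runs of 3 therefore had their highest or lowest score in the middle. Most of the possible orders of 3 unequal scores do so too, and no other neighbours were compared.

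The 13 runs of 4 or 5 peaks are listed here with their scores in the order of coordinates. The run with the most peaks lay on chromosome 19 at 6260175 to 6264861, with scores of 39, 36, 113, 95 and 102. Its first 2 peaks were weak and the other three close to the median of the list. Another run on chromosome 19, at 47432710 to 47435096, was the weakest of these, with scores of 37, 62, 22 and 62. The run on chromosome 9 at 121739293 to 121742139 was similarly weak throughout, with 49, 42, 43 and 79.

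Other long runs were led by 1 peak. On chromosome 5 at 125747320 to 125752926, in the longest run of all, a peak of 3381 bp scored 840 and was followed by 3 peaks of 42, 69 and 49, with widths of 490, 736 and 400 bp. It was the widest peak in any run. On chromosome 15 at 74366066 to 74369855, the first peak scored 640 and the next, only 82 bp away and of similar width (1034 and 1122 bp), scored 41. The remaining peaks of that run scored 79 and 131. In both runs the leader stood at the lower-coordinate end.

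In 2 of the long runs the scores were closer together. On chromosome 2 at 32188268 to 32193771 the scores were 172, 97, 208 and 155, and peaks filled 58.9% of the run. On chromosome 8 at 123101711 to 123105281 they were 158, 90, 93 and 168, so the stronger peaks flanked the weaker. Another run, on chromosome 8 at 122811755 to 122816957, was less even, with 612, 409, 121 and 213. The first 2 of these peaks were 572 bp apart and formed the pair with the strongest weaker member of any adjacent pair in the runs.

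The remaining long runs each had a moderate peak next to weaker ones. On chromosome 4 at 149021338 to 149026880 the scores were 128, 302, 151 and 45, and on chromosome 8 at 127199139 to 127204632 they were 90, 248, 59 and 103. On chromosome 17 at 30344046 to 30348111 they were 157, 139, 228 and 50. In these 3 runs the strongest peak was an inner one. On chromosome 11 at 61526424 to 61529464 the scores were 147, 38, 72 and 189, with the strongest at the ends. On chromosome 2 at 156478596 to 156481591 they were 76, 155, 38 and 76.

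**Figure D4:**
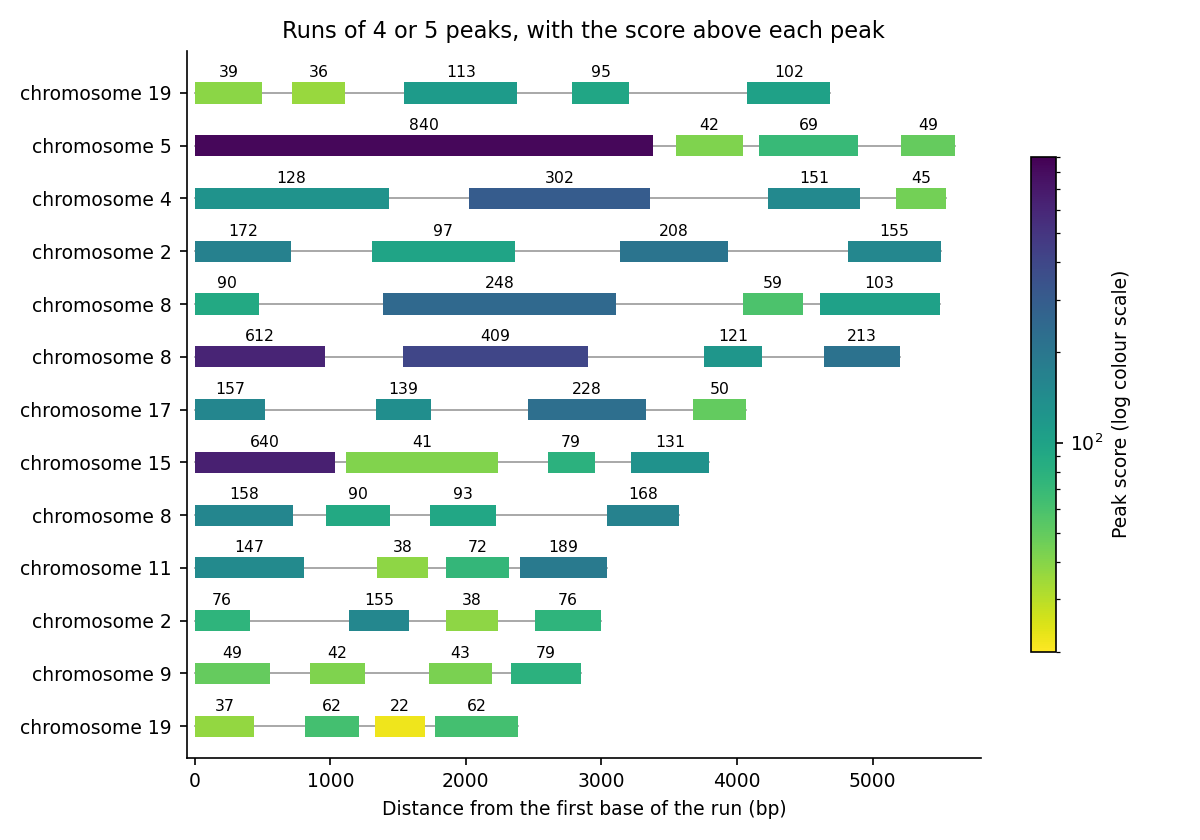
The 13 runs of 4 or 5 peaks, each on its own line, drawn to scale by distance in bp from the first base of the run. Boxes are peaks, coloured by score on a log scale with the score above. The chromosome 5 run opens with a box of 3381 bp and a score of 840, and the chromosome 19 run at the top has 5 boxes, none above 113.

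The strongest peaks in runs had companions with far lower scores. On chromosome 11 at 95394272 to 95397243 a peak of 2651 was followed, 731 bp on, by one of 53 at a width of 361 bp. On chromosome 5 at 113482847 to 113484921 a peak of 2301 had a neighbour of 22 only 293 bp away, a ratio of 105, the largest in any run. That weak score was close to 13, the lowest of any autosomal peak. On chromosome 11 at 94797147 to 94800846 the scores were 2063, 90 and 44 in order. In these 3 runs the strongest peak came first.

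Elsewhere the strong peak came second. On chromosome 8 at 122840927 to 122844299 a peak of 183 preceded one of 2466, and the lower-scoring peak was the wider of the pair (1552 against 1304 bp). On chromosome 10 at 126948914 to 126950823 a peak of 88 preceded one of 1773, and on chromosome 16 at 17920649 to 17922485 one of 95 preceded one of 1863. The gaps in the last pair of runs were 138 and 137 bp. On chromosome 11 at 96721495 to 96724861 the strong peak of 2403 stood between peaks of 322 and 122. On chromosome 4 at 43994553 to 43997527 a peak of 2421 came first, with one of 154 placed 997 bp away, so this run only just met the rule.

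Large ratios also occurred around less extreme peaks. The run on chromosome 14 at 47705876 to 47708768 had scores of 1409 and 37, a ratio of 38.1, and no other region lay within 100 kb. On chromosome 7 at 35459860 to 35461535 the scores were 17 and 614, and on chromosome 6 at 92016971 to 92019477 they were 1280 and 49. On chromosome 7 at 150254677 to 150256270 they were 602 and 27, and on chromosome 1 at 136140552 to 136142937 they were 827 and 38. The weak member was 359 to 455 bp wide in these 5 runs, against a smallest width of 344 bp in the list. Its score was 17 to 49, against a lowest autosomal score of 13 and a lower quartile of 43 for the weakest peak over all runs. The strong member scored 602 to 1409. How much each member contributed to the large ratios was not tested.

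The runs with the highest weakest score held pairs of strong peaks, some nearly equal and some not. The highest such score was found on chromosome 2 at 30572596 to 30574888, where peaks of 352 and 427 were 415 bp apart. On chromosome 11 at 70482744 to 70484451 the scores were 367 and 322, the most even of these runs with a ratio of 1.14. On chromosome 12 at 3780300 to 3782142 they were 338 and 549, and at 110780023 to 110781446 they were 299 and 721. The last of these was shorter than the median run, at 1424 bp.

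Chromosome 19 had 2 pairs of this kind, with 373 and 292 at 5087760 to 5088995 and 395 and 294 at 46598178 to 46599863. On chromosome 5 at 112644537 to 112646704 the scores were 375 and 290, and on chromosome 9 at 106349646 to 106351474 they were 642 and 288. The stronger peak came first in all 4 of these. In the runs of this kind on chromosomes 2 and 12 it came second, and on chromosome 11 it came first. Over all pairs neither side was favoured. A longer run with 3 strong members lay on chromosome 5 at 134965139 to 134970646, with scores of 260, 1029 and 225. The other run of 3 among the longest, on chromosome 2 at 31233976 to 31239369, rose from 31 to 127 to 398.

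Runs were unevenly spread over the chromosomes. Over all autosomes there were 5.87 runs per 100 joined regions. The highest values were 9.48 on chromosome 19 (40 runs), 8.62 on chromosome 15 (57), 7.69 on chromosome 4 (90) and 7.00 on chromosome 8 (58). The lowest were 2.49 on chromosome 13 (11 runs) and 3.88 on chromosome 18 (15). The rest lay between 4.83 on chromosome 1 and 6.78 on chromosome 2. Chromosome 11 has the most peaks and the highest density of peaks, but at 6.17 runs per 100 regions it was close to the overall value. Across the 19 autosomes, runs per 100 regions rose with peaks per Mb (Spearman's rho = 0.66), which is a description of parts of the same list.

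**Figure D5:**
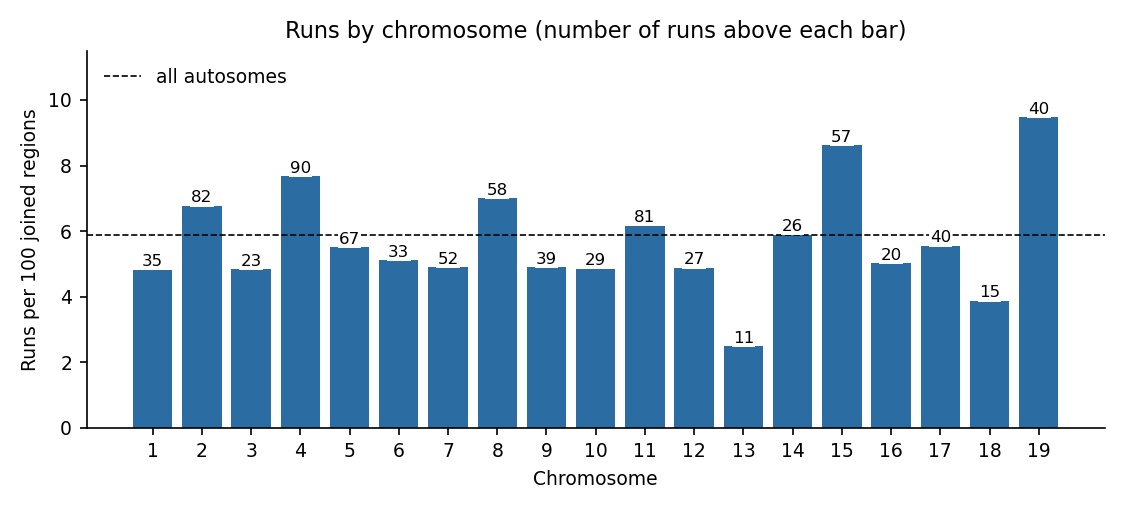
Runs per 100 joined regions (vertical axis) on each autosome, with the number of runs above each bar and a dashed line at 5.87 for all autosomes. Chromosomes 19 and 15 have the highest bars, at 9.48 and 8.62, and chromosome 13 has the lowest, at 2.49.

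Runs lay in surroundings richer in peaks than single peaks did. The nearest other region was a median of 7.83 kb from a run and 17.0 kb from a single peak. Another region lay within 10 kb of 464 runs (56.2%) and of 37.0% of single peaks. Within 100 kb of its midpoint, a run had a median of 5 other regions, with quartiles of 3 and 8, and a single peak had 3, with quartiles of 1 and 6. The ranges overlapped fully, from 0 to 24 in both groups. Since the rule selects close peaks, a higher local density around them is partly built into the choice. The part of each chromosome span away from the centromere, the distal 50%, held 558 runs (67.6%) and 62.5% of autosomal peaks. The direction differed between chromosomes. This share was lower for runs than for peaks on chromosomes 1, 2, 7, 14, 17 and 19, and higher on the others.

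Runs had other runs nearby more often than single peaks did. Another run lay within 100 kb of 315 runs (38.2%) and within 10 kb of 79 (9.58%). For single peaks, a run lay within 100 kb of 24.7% and within 10 kb of 4.66%. Runs also had more regions of any kind around them, as given above, and the part of this local density in the difference was not tested. Of the 1750 windows of 1 Mb that held a peak, 430 held a run, and 45 held 4 or more. The windows and runs named from here on were picked once their values were known. The window with the most was on chromosome 4 from 140000001 to 141000000, where 12 of 61 regions were runs. Next were chromosome 8 from 122000001 to 123000000, with 10 of 51, and chromosome 2 from 32000001 to 33000000, with 9 of 50. On chromosome 15 from 78000001 to 79000000, 9 of 40 regions were runs.

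In the chromosome 4 window, 4 runs lay close together, with a single peak between the second and the third. The first, at 140093234 to 140096125, had scores of 55 and 247, and the second, at 140097721 to 140098862, had 29 and 121. The third, at 140102334 to 140103748, had 173 and 22, and the fourth, at 140105721 to 140108615, had 97 and 146. The stronger peak came second in 3 of these and first in 1. Further along chromosome 4, runs at 141412558 to 141413816 (scores 62 and 48) and at 141415374 to 141418061 (131, 128 and 245) were separated by 1557 bp.

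Similar neighbours were found on other chromosomes. On chromosome 6, a run at 125547960 to 125551262 with scores of 43 and 181 lay 1325 bp from one at 125552588 to 125555074 with 62 and 919. In both, a narrow weak peak preceded a wide one, of 2259 and 1983 bp. On chromosome 15, a run with scores of 1474 and 108 at 85539967 to 85543477 was followed 1649 bp on by one with 25 and 53. In all, 16 runs had another run within 2 kb.

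Only a few runs stood apart from other peaks. No other region lay within 100 kb of 39 runs (4.73%), against 14.1% of single peaks. The most isolated, on chromosome 14 at 84846748 to 84848022, had 1.47 Mb to the nearest other region and scores of 228 and 172, both above the upper quartile. The next, on chromosome 2 at 16277281 to 16278519, had 1.31 Mb and scores of 155 and 16. Another on chromosome 2, at 55288641 to 55289970, had 0.826 Mb and scores of 151 and 79. Close pairs of peaks thus also occurred, although seldom, where the list was otherwise nearly empty.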

How the data were processed

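CTCF ChIP-seq of hippocampus was described by the labels as 2 ChIP and 2 input libraries. The submitters' processing notes name cutadapt, the build mm9 and, for peaks, MACS2 2.0.10.20131216. A narrowPeak track line heads the list, and its name sets ChIP 1 and 2 against input 1 and 2, per the file header. The sources used here do not give the aligner, the calling threshold or the handling of duplicates. The score of each peak is a whole number deposited by the authors, with no stated scale, and was used only within this list.

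Starts were converted to positions counted from 1. Autosomal peaks were sorted and joined with Python 3.11.15 and pandas 2.3.3 when the gap was below 1000 bp. Gaps are the bases between 2 peaks. Chromosome spans run from the first to the last peak. No test was run, because the rule uses the positions of the peaks and the score comes from the same contrast. Joining and order counts were tested on simulated lists with planted runs.

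Runs were named by rule: all with 4 or more peaks, the 8 with the highest peak, the largest ratio, the highest weakest member or the greatest length, and those with the smallest and largest gap (38 runs). The rule, the lists and the runs themselves were chosen with earlier results of these data known. Alternatives were other joining distances, score filters and the inclusion of X. The gene and promoter tables at hand are on GRCm38.p6, another build, so genes, promoters, motifs and sequences were not analysed here. Read depth is unknown.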

Additional observations from a re-analysis of the deposited data

How the results depend on the processing

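The number of runs was 482 with a joining distance of 500 bp and 1213 with 2 kb, and it was 203 or 57 when only peaks at or above the median score, or those scoring 163 or more, were joined. The median length was 1391.5 bp at 500 bp, 2140 bp at 2 kb, and 1894 and 1843 bp with the same score filters. The median ratio of strongest to weakest was 2.04 and 2.13 for the other joining distances. It fell to 1.68 and 1.48 with the score filters, which remove weak members by construction. Likewise the share of runs with a peak of 163 or more became 75.4% and 100%. Runs per 100 joined regions were 3.33 at 500 bp and 8.99 at 2 kb. Chromosome 19 had the highest value and chromosome 13 the lowest at all 3 distances, but the second place went from chromosome 15 to chromosome 2 at 2 kb. The share of pairs with the stronger peak at the lower coordinate stayed between 44.9% and 50.1% under its 6 alternatives. Including X changed the number of runs to 830. No paired analysis was possible because no single library has values of its own here, so no replicate could be left out either. The share of runs with the CTCF motif was not analysed here. How many reads lie behind a weak member of a run is unknown.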

Other observations

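Chromosome X was left out of the runs by the rule. Its 135 peaks formed 130 joined regions, of which 5 were runs, or 3.85 per 100 regions. All were pairs, and each had a peak of 163 or more. Their scores in the order of coordinates were 37 and 236 from 12416606, 104 and 425 from 35533855, 37 and 286 from 71526839, 187 and 83 from 147247285, and 163 and 459 from 163645526. The stronger peak came second in 4 of the 5. With so few runs these are given as values only.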
